A study of Mus musculus with 8 samples.

Results

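Rsad2, Bst2 and 7 further interferon-stimulated genes (Ifit1, Ifit2, Ifit3, Isg15, Irf7, Usp18 and Oasl2) were read in mouse aortic smooth muscle cells given a synthetic moR-21 or a scrambled control. They were found by gene symbol in a probe table of 25697 probes and 18138 symbols, and 8 of the 9 symbols had a probe there, with 12 probes in all. Isg15 had no probe under its symbol, so it has no value here. Of the 8727 symbols with a tested probe, 7 were members. These genes were selected on earlier results of the same contrast, the log2 differences between the treatments, so those differences, and whether they passed the cutoffs used for all probes, are given as a description and not as evidence of a change.

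The cells were primary smooth muscle cells grown out of several mouse aortas as explants, whose strain, sex and age are not given in the sources used here. The control group received a scrambled oligonucleotide and the other group a moR-21 mimetic, both with the lipid reagent RNAiMAX at 5 nM, and RNA was taken 48 h later. All samples therefore carried a transfected small RNA, and no array of untransfected cells is analysed here. Each group had 3 samples; control 1 and moR-21 3 were each run on a pair of arrays (A and B), so 8 arrays stood for 6 samples. Nothing in the labels says that the samples of a group came from separate cultures, and p-values then measure the spread between these samples only, which may be technical.

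A microRNA-offset RNA (moR) is a short RNA cut from a microRNA precursor next to the microRNA, and moR-21 lies beside miR-21. Type I interferons are signalling proteins that bind a receptor on the cell surface and, through the JAK kinases, switch on a transcription factor complex that includes Stat2 and Irf9. This complex binds the interferon-stimulated response element in the promoters of many antiviral genes, of which the genes described here are standard members. Double-stranded or otherwise foreign RNA inside a cell can start the same programme through sensors such as Ddx58 (RIG-I) and Ifih1 (MDA5), which induce interferon through Irf3 and Irf7.

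The start of the RefSeq hairpin of Mir21a, up to the first base of miR-21a-5p, is shown because moR-21 comes from this side of the precursor (GRCm38.p6, chr11:86584142-86584158, minus strand). The study examined candidate seed windows along moR-21, and the capitals mark the bases common to the first of them, those nearest its start. The full sequence of the mimetic is not printed in the text of the sources used here. The study's numbering of these windows places the start of moR-21 before the first base shown.
Mir21a precursor, 17 bases before miR-21a-5p: uGUACCaccuugucgga

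The promoter windows of RefSeq (GRCm38.p6, 250 bases before to 50 after a gene's start) were searched on both strands for the core of the interferon-stimulated response element, written GAAANNGAAA or, on the other strand, TTTCNNTTTC. This core occurred in 3.44% of 32851 windows, and in at least 1 window of 3.99% of 27025 gene symbols. It occurred in 5 of the 8 members with a window, namely Rsad2, Bst2, Ifit1, Ifit3 and Isg15. It did not occur in either window of Ifit2, or in those of Irf7 and Oasl2, and the table held no window for Usp18. The stretches that hold it are shown for Rsad2 and Bst2, whose signal was lower with moR-21, for Ifit3, whose signal was higher, and for Isg15, which the array did not measure. Each is written 5′ to 3′ on the strand of its gene, with the core in capitals.
Rsad2 (chr12:26456553-26456582, minus strand): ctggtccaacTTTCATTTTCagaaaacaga
Bst2 (chr8:71537580-71537609, minus strand): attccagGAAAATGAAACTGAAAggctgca
Ifit3 (chr19:34583363-34583392, plus strand): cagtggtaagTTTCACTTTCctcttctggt
Ifit3 (chr19:34583397-34583426, plus strand): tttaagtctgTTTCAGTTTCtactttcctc
Isg15 (chr4:156200871-156200900, minus strand): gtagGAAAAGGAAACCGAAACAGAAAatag

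The Rsad2 core lay 120 to 111 bases before the gene's start. Bst2 held 2 overlapping copies between 130 and 115 bases before its start, and Isg15 held 3 overlapping copies between 78 and 57 bases before. The pair of Ifit3 stretches has the same letters in the window of Ifit3b, a near-identical neighbour on chromosome 19, so an Ifit3 probe may also read Ifit3b and its value is uncertain in that respect. A match describes the letters only, and the genes that hold the core included both directions of difference.

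The array values were intensities that were quantile normalized here over the 8 arrays and put on a log2 scale, on which 1 unit is a doubling. The brightest detected probe stood for a gene, and probes with a detection p under 0.01 on at least 1 array were tested with limma. Calls needed a change of more than 1.3-fold together with an adjusted p under 0.002. The median intensity of the arrays was 102 to 109 and 10285 to 10512 probes were detected on each, so no array stood apart in these respects. The median log2 difference between the treatments over all 11651 tested probes was 0.00.

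Of the 7 members with a tested probe, Rsad2 and Bst2 were lower with moR-21 past these cutoffs and the other 5 (Ifit2, Ifit3, Irf7, Usp18 and Oasl2) did not pass them in either direction. Over all tested probes, 3.85% were called lower and 3.12% were called higher. Because the members were chosen with this contrast in view, nothing is read from their count against that share. Their median log2 difference was -0.04, with 4 lower and 3 higher. In the bulk RNA used here, fewer cells of a type that expresses a gene and less of its RNA per cell cannot be told apart.

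Rsad2 (viperin) encodes a radical SAM enzyme that makes a chain-terminating nucleotide and blocks the replication of many viruses (GRCm38.p6, chr12:26442743-26456452). Its log2 signal in the controls was 10.58 and 10.48 on arrays 1A and 1B, 10.69 in sample 2 and 10.36 in sample 3. With moR-21 it was 9.41 in sample 1, 9.22 in sample 2, and 9.19 and 9.38 on arrays 3A and 3B. Every moR-21 array lay below every control array, and the nearest pair of arrays from opposite groups was 0.96 apart. The group means were 10.53 ± 0.163 (SD, n = 3) and 9.31 ± 0.0918 (SD, n = 3), a log2 difference of -1.22 (SE 0.0727), or 2.33-fold lower. In the intensities as deposited, before any normalization, the controls ran from 1296 to 1624 and the moR-21 arrays from 570 to 695. Ordered by the size of the fall, Rsad2 stood at 23 of 8727 gene symbols.

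Bst2 (tetherin) encodes a membrane protein that holds budding virus particles at the cell surface (chr8:71534255-71537472). The controls gave 9.25 and 9.07 on arrays 1A and 1B, 9.01 in sample 2 and 9.26 in sample 3, on the log2 scale. The moR-21 arrays gave 8.42 in sample 1, 8.41 in sample 2, and 8.54 and 8.51 on arrays 3A and 3B. The groups did not overlap, with 0.47 between the lowest control array and the highest moR-21 array. The means were 9.14 ± 0.126 (SD, n = 3) and 8.45 ± 0.0663 (SD, n = 3), a log2 difference of -0.69 (SE 0.062), or 1.61-fold lower. The deposited intensities were 472 to 621 in the controls and 327 to 384 with moR-21, and Bst2 stood at 95 of 8727 by the size of the fall. Bst2 is also high in plasmacytoid dendritic cells, and 0 of the 4 markers of that cell type with a probe (of 6 listed) were detected on any array.

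The Ifit genes encode tetratricopeptide repeat proteins that bind viral RNA or hold back its translation, and they lie side by side on chromosome 19. Ifit2 (chr19:34550550-34576534) gave 9.60 and 9.52 on control arrays 1A and 1B, 9.79 in control 2 and 9.42 in control 3. With moR-21 it gave 10.16 in sample 1, 9.70 in sample 2, and 9.97 and 9.85 on arrays 3A and 3B. The moR-21 2 array lay below the control 2 array, so the groups overlapped. The means of 9.59 ± 0.189 and 9.92 ± 0.233 (SD, n = 3 each) differed by 0.33 on the log2 scale (SE 0.103), higher with moR-21. At the dimmer Ifit2 probe the log2 difference was 0.11 (SE 0.0774), and its arrays 3A and 3B, at 8.35 and 8.83, were 0.48 apart although they read the same sample.

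Ifit3 lies next to Ifit2 (chr19:34583119-34588982). Its log2 signal was 12.76 and 12.70 on control arrays 1A and 1B, 12.77 in control 2 and 12.61 in control 3. In the moR-21 group it was 13.01 in sample 1, 12.81 in sample 2, and 12.82 and 12.91 on arrays 3A and 3B. The groups did not overlap, but only 0.04 separated the nearest arrays. The log2 difference was 0.19 (SE 0.0587), which is 1.14-fold higher with moR-21 and short of both cutoffs. The dimmer Ifit3 probe gave 10.05 to 10.33 in the controls and 10.43 to 10.65 with moR-21, a log2 difference of 0.27 (SE 0.0591). By samples, with repeat arrays averaged, Ifit3 lay wholly above the controls, and Rsad2 and Bst2 wholly below. Over all tested probes, 23.7% had every moR-21 sample above every control sample and 21.2% had every moR-21 sample below. Separation of single arrays is a stricter criterion, and no share of all probes was computed for it.

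Ifit1 (chr19:34640889-34650009), often among the most strongly induced genes of an interferon response, was not detected on any array. Its lowest detection p was 0.612, and its 8 log2 values lay between 6.54 and 6.60 in both groups. No difference is given for it. Ifit1 had 1 probe, and a probe that fails to read its RNA cannot be told apart from absent RNA. Gbp2 and Oas1g, described below, each had undetected probes beside detected ones. The promoter window of Ifit1 holds the element core as those of Rsad2 and Ifit3 do.

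**Figure D1:**
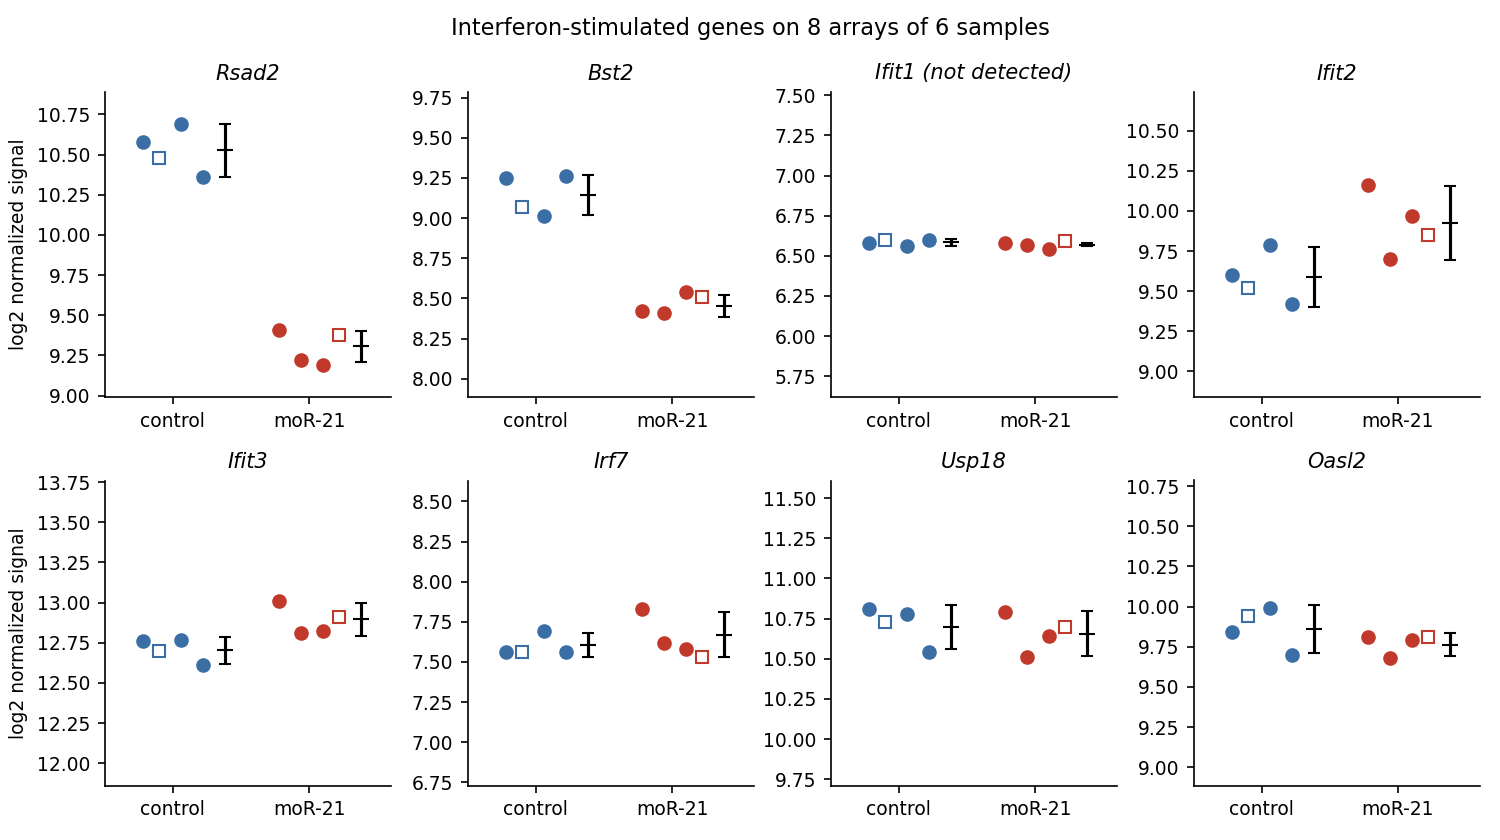
Log2 normalized signal (vertical axes, which all span the same width) of the 8 members with a probe, at the brightest probe, in the scrambled control (blue) and moR-21 mimetic (red) arrays; open squares are the second array (B) of a sample, and the bar to the right of each group is the mean ± SD over 3 samples. Rsad2 and Bst2 separate by 0.96 and 0.47 between nearest arrays, Ifit3 by 0.04, and Ifit2, Irf7, Usp18 and Oasl2 overlap.

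The regulators and the remaining effector overlapped between groups. Irf7, the transcription factor that amplifies interferon production (chr7:141263183-141266499), gave 7.56, 7.56, 7.69 and 7.56 on control arrays 1A, 1B, 2 and 3. It gave 7.83, 7.62, 7.58 and 7.53 on moR-21 arrays 1, 2, 3A and 3B. Only moR-21 1 lay above the controls, and the log2 difference was 0.07 (SE 0.0662). Without moR-21 1 it was -0.01.

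Usp18 removes Isg15 from proteins and dampens signalling from the interferon receptor (chr6:121245906-121270917). Its control arrays 1A, 1B, 2 and 3 gave 10.81, 10.73, 10.78 and 10.54. Its moR-21 arrays 1, 2, 3A and 3B gave 10.79, 10.51, 10.64 and 10.70. Both groups spanned nearly the same range, with a log2 difference of -0.04 (SE 0.0741) and of 0.00 (SE 0.088) at the dimmer probe.

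Oasl2, a 2′-5′-oligoadenylate synthetase-like protein (chr5:114896926-114912245), gave 9.84, 9.94, 9.99 and 9.70 on control arrays 1A, 1B, 2 and 3. On moR-21 arrays 1, 2, 3A and 3B it gave 9.81, 9.68, 9.79 and 9.81. The ranges overlapped and the log2 difference was -0.10 (SE 0.0665). The dimmer Oasl2 probe had the opposite sign, 0.11 (SE 0.0584), so the pair of probes disagreed in direction, each by less than 2 SE.

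**Figure D2:**
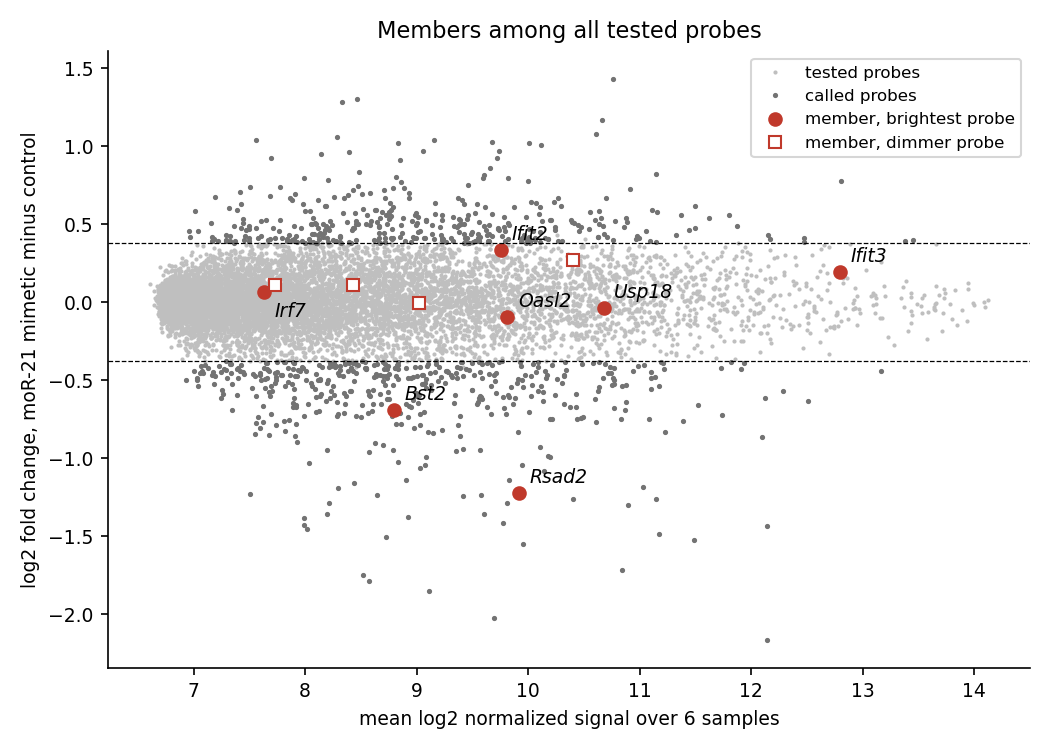
Mean log2 normalized signal over the 6 samples (horizontal axis) against the log2 fold change, moR-21 mimetic minus control (vertical axis), for 11651 tested probes (light grey, dark grey where called), with the brightest (filled red circles) and dimmer (open red squares) probes of the 7 tested members; dashed lines mark 1.3-fold. Rsad2 at -1.22 and Bst2 at -0.69 lie below the lower line, and all other member probes lie between the lines, from -0.10 to 0.33.

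Samples of the same treatment differed more in these genes than in the typical probe. The median SD of the 7 tested members over 3 samples was 0.134 in the controls and 0.099 with moR-21, where all tested probes had medians of 0.052 and 0.0559. The 5916 tested probes whose mean signal lay within the range of the members had medians of 0.0575 and 0.0648. The repeat arrays of 1 sample did not show this to the same extent: the median absolute difference between arrays A and B was 0.0791 for control 1 and 0.0692 for moR-21 3, beside 0.0573 and 0.0641 over all tested probes. The probes within the members' range of signal had 0.0617 and 0.0705, so moR-21 3 showed no excess over them. These differences come from 1 pair of arrays per group and are not on the scale of the SDs.

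At their brightest probes, most members also had the same order among the samples. Among the controls, sample 2 was the highest and sample 3 the lowest in 6 of 7 members (Rsad2, Ifit2, Ifit3, Irf7, Usp18 and Oasl2). Bst2 had the reverse order, with control 3 highest and control 2 lowest. Some of these places were nearly tied. Irf7 deviated from the control mean by -0.0459 in control 3 and -0.0439 in control 1, and Usp18 by 0.0822 in control 2 and 0.0723 in control 1. Among the moR-21 samples, sample 1 was the highest in 6 of 7, Bst2 being highest in sample 3, and sample 2 was the lowest in 6 of 7, Irf7 being lowest in sample 3. Here too some places were close. Oasl2 deviated by 0.0455 in moR-21 1 and 0.0351 in moR-21 3. Bst2 deviated by -0.046 in moR-21 2 and -0.03 in moR-21 1. For Rsad2, array 3A (9.19) lay below moR-21 2 (9.22). Its arrays 3A and 3B were 0.19 apart, beside a range of 0.18 over the moR-21 samples. The 4 dimmer probes of Ifit2, Ifit3, Usp18 and Oasl2 followed the order of the brightest probes in part: control 2 was highest in 2, control 3 lowest in 3, moR-21 1 highest in 2 and moR-21 2 lowest in 3, and 0 of the 4 had it in full. At the brightest probes, the median deviation from the group mean was 0.09 in control 2 and -0.15 in control 3, and 0.11 in moR-21 1 and -0.08 in moR-21 2. The sizes are those of a modest difference: for Rsad2 the range within the controls was 0.33, against the difference of -1.22 between the treatments, while for Ifit2 the range of samples within either group was larger than the difference between groups.

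This order, which was noticed in the members' brightest probes, was then read in 42 detected interferon-stimulated genes that are not members. Control 3 was the lowest control in 26 of them (61.9%), beside 36.1% of all tested probes. The moR-21 1 sample was the highest of its group in 26 (61.9%), beside 34.9%, and moR-21 2 the lowest in 24 (57.1%), beside 35.0%. Control 2 was the highest control in 20 (47.6%), beside 34.3%. Genes of one pathway vary together, so these genes are not independent of each other, and no test was made. What set the samples of a group apart was not tested.

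**Figure D3:**
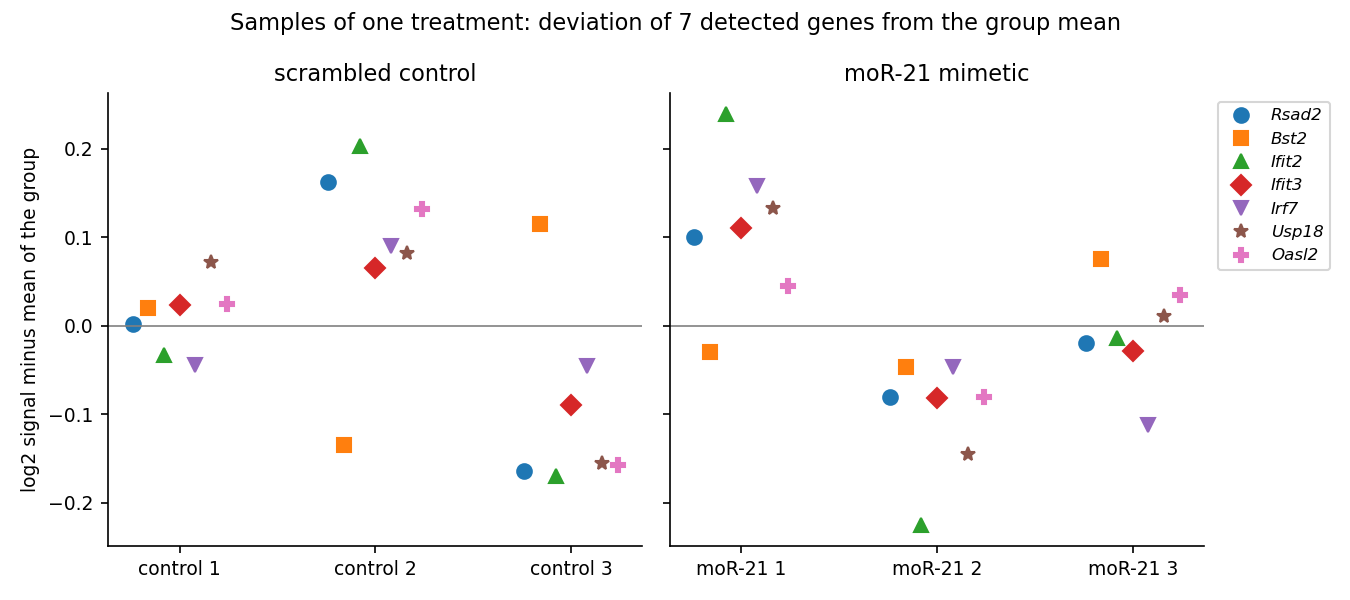
Deviation of each sample's log2 normalized signal from the mean of its own group (vertical axis) for the 7 detected members (one symbol each), in the 3 control samples (left) and the 3 moR-21 samples (right), arrays of a sample averaged. Control 2 and moR-21 1 lie mostly above 0, control 3 and moR-21 2 mostly below, and Bst2 departs from this order.

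Beyond the members, 121 genes of the interferon pathway were listed by role, 106 had a probe and 79 were detected. Of these, 6 (7.59%) were called lower with moR-21, 1 (1.27%) was called higher and 72 passed in neither direction, beside 3.85% lower and 3.12% higher over all tested probes. They had a median log2 difference of -0.03 beside 0.00 over all tested probes. The samples with moR-21 lay wholly below the controls in 24 genes (30.4%) and wholly above in 8 (10.1%), beside 21.2% and 23.7% of all tested probes. No test of these shares was made.

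The other interferon-stimulated genes gave 4 of those calls among 42 detected, all lower, and their log2 differences ran from -0.77 to 0.36 around a median of -0.03 (24 lower and 18 higher). Eif2ak2, the kinase PKR that halts translation on binding double-stranded RNA, was 11.04, 11.01 and 10.93 in controls 1 to 3 and 10.26, 10.15 and 10.27 in moR-21 samples 1 to 3. The groups did not overlap, and it fell by 0.77 on the log2 scale (SE 0.0507, limma adjusted p = 7.41e-08), or 1.70-fold.

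The 2′-5′-oligoadenylate synthetases make the second messenger that activates RNase L. Oas2 was 8.15, 8.23 and 8.06 in the controls and 7.77, 7.53 and 7.57 with moR-21, a fall without overlap of 0.52 (SE 0.0646, adjusted p = 2.74e-05). Oas1g was 8.04, 8.30 and 7.94 in the controls and 7.81, 7.61 and 7.47 with moR-21, and fell by 0.47 (SE 0.0901, adjusted p = 0.00112). Oas1g has close paralogs, its dimmer probe gave -0.27 and was not called, and it lost the call in 10 of 19 alternative settings, so it is the least certain of the 4. Lgals3bp, a secreted galectin-binding glycoprotein, fell by 0.45 (SE 0.0622, adjusted p = 7.13e-05).

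Several other genes of this list did not pass the cutoffs. Mx1, a GTPase that traps viral nucleocapsids, had a log2 difference of -0.12 (SE 0.0493, adjusted p = 0.0843) and was detected on 5 of 8 arrays. Cxcl10, an interferon-induced chemokine, gave -0.13 (SE 0.11, adjusted p = 0.419), and Cmpk2, a nucleotide kinase whose gene neighbours Rsad2, gave -0.01 (SE 0.0893, adjusted p = 0.932). Oasl1, a relative of Oasl2, gave -0.27 (SE 0.0628, adjusted p = 0.00377), Ifi27, an interferon-induced gene, gave -0.26 (SE 0.0686, adjusted p = 0.00956), and Ube2l6, the conjugating enzyme for Isg15, gave -0.23 (SE 0.0507, adjusted p = 0.00297). The high end of the list was held by Gbp2, a guanylate-binding protein, at 0.36 (SE 0.0709, adjusted p = 0.0013), which passed the p cutoff but not the fold cutoff. Next came Ifi47 at 0.32 (SE 0.0797, adjusted p = 0.00601) and Ccl5 at 0.29 (SE 0.0607, adjusted p = 0.00211), which passed neither cutoff. Apart from Mx1, these genes were chosen after their values were seen.

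Of the receptors and the JAK-STAT pathway, 12 of 14 genes were detected and 0 were called by limma, with 5 lower and 1 higher at an unadjusted p under 0.05. The largest change was in Socs3, at -0.36 (SE 0.0447, adjusted p = 2.94e-05), which passed the p cutoff but not the fold cutoff. Socs3 was chosen after its value was seen. Stat2 was 8.67, 8.56 and 8.69 in the controls and 8.68, 8.20 and 8.31 with moR-21, a log2 difference of -0.24 (SE 0.0919, adjusted p = 0.0554). The moR-21 1 sample lay within the controls and the other moR-21 samples below them, and Stat2 was called lower when moR-21 1 was left out. Irf9 gave 0.10 (SE 0.0544, adjusted p = 0.202) and the receptor chain Ifnar2 gave -0.13 (SE 0.0507, adjusted p = 0.0675), while Ifnar1 was not detected at its 1 probe.

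Of 17 sensors of foreign nucleic acid and their adaptors, 14 had a probe, 10 were detected and 0 were called by limma. At an unadjusted p under 0.05, 2 were lower and 1 higher. The largest change was in Myd88, at -0.25 (SE 0.0549, limma adjusted p = 0.00299), which passed neither cutoff and was chosen after its value was seen. The RNA sensor Ddx58 had a log2 difference of 0.03 (SE 0.0714, adjusted p = 0.774), its relative Dhx58 gave -0.10 (SE 0.0519, adjusted p = 0.146) and Ifih1 was not detected at its 1 probe. Irf3, which carries the signal of these sensors to the interferon genes, gave 0.01 (SE 0.0509, adjusted p = 0.947). Among the other interferon regulatory factors, Irf2, best known as a repressor of interferon-induced genes, was 10.16, 10.37 and 10.19 in the controls and 9.87, 9.81 and 9.84 with moR-21, and fell by 0.40 (SE 0.0566, adjusted p = 9.64e-05).

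The interferons themselves were at or near background. Of 11 ligand genes, 8 had a probe and 1 was detected, Ifna1, on 6 arrays and with a log2 difference of 0.03 (SE 0.0457, adjusted p = 0.629). Ifnb1, the interferon that most non-immune cells make first, was not detected at its 1 probe on any array. Of 15 genes of MHC class I presentation, which interferon also raises, 13 had a probe and 11 were detected. Of these, 1 was called lower and 1 higher around a median of 0.02. H2-T23, a non-classical class I molecule, fell by 0.42 (SE 0.0634, adjusted p = 1.71e-04), and H2-M3, which presents formylated peptides, rose by 0.39 (SE 0.0533, adjusted p = 6.45e-05). H2-T23, H2-M3, Irf2 and Lgals3bp lost their calls with normexp background correction, and the first 3 of them also when particular samples were left out. B2m, the light chain of class I, gave 0.09 (SE 0.0563, adjusted p = 0.231).

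**Figure D4:**
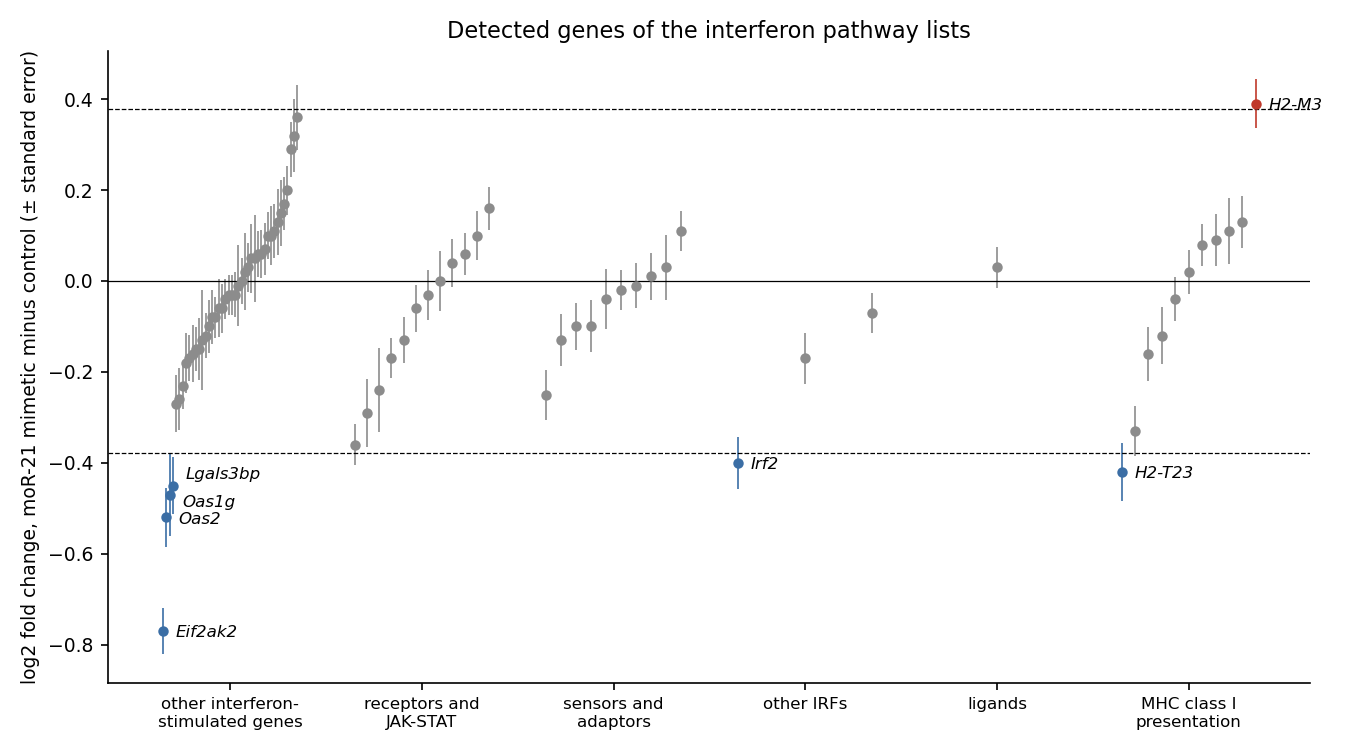
Log2 fold change, moR-21 mimetic minus control, with its standard error (vertical axis), of the 79 detected genes in 6 lists of the interferon pathway (horizontal axis, genes ordered by value within a list); called genes are named (blue lower, red higher), grey genes were not called, and dashed lines mark 1.3-fold. The list medians lie between -0.17 and 0.03, with Eif2ak2 lowest at -0.77 and H2-M3 highest at 0.39.

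Among other interferon-stimulated genes that were tested and had a promoter window, 14 of 31 (45.2%) held the element core. Their median log2 difference was 0.00, beside -0.03 for the 17 without it. Of the 4 called genes, Eif2ak2 and Oas1g held the core, Lgals3bp did not, and Oas2 had no window in the table.

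Outside the interferon lists, the genes whose values over the 6 samples were most like those of Rsad2, by the root mean square difference of log2 values centred on the control mean, were Ly6a (0.0679), Acpl2 (0.116), Txndc15 (0.121), Spcs3 (0.125) and Lsm8 (0.125). Their log2 differences ran from -1.38 for Spcs3 to -1.14 for Lsm8. Values centred this way include the difference between the treatments, so a log2 difference near that of the matched gene follows from the selection. Ly6a, the surface antigen Sca-1, was nearest and had a log2 difference of -1.24 (SE 0.0838). The lists are not complete, so lying outside them does not mean that a gene is not induced by interferon. The genes most like Bst2 were Ift20 (0.0572), LOC100044177 (0.0587), N6amt1 (0.0591), Bnc1 (0.066) and Arl6ip1 (0.0677), with log2 differences from -0.75 to -0.64.

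One label field calls the cells AoECs and the others aortic smooth muscle cells, so markers of both were read. Of 9 smooth muscle markers with a probe, 6 were detected, with a summed linear signal of 10500 to 10900 in the controls and 13300 to 14100 with moR-21, while Myh11, Cnn1 and Myocd were not detected. The sum lay mostly in Acta2, the brightest of the 6, which was called higher at 0.40 on the log2 scale (limma adjusted p = 2.14e-05). Des gave -0.38 (adjusted p = 8.6e-05, not called), and Tpm2 and Smtn gave 0.04 and -0.05. Tagln and Lmod1 gave 0.20 and 0.05 and were detected on only 4 and 3 of the 8 arrays. Of 10 endothelial markers, 2 were detected (407 to 438 and 403 to 417), and Pecam1, Cdh5, Kdr and Tek were not. Of 10 macrophage markers, 3 were detected (1620 to 1690 and 1460 to 1500), and Ptprc, Cd68 and Adgre1 were not. These 3 did not move together: Cd14 gave -0.27 (adjusted p = 3.38e-04, not called), Lyz2 was called higher at 0.48 (adjusted p = 1.79e-06) and Csf1r gave -0.01 (adjusted p = 0.859). Of 5 mesothelial markers with a probe, 2 were detected (771 to 780 and 402 to 416), and Msln, Upk1b and Lrrn4 were not. The lower sum lay mostly in Upk3b, which was called lower and fell by 1.24 on the log2 scale. The other detected marker, Krt19, gave -0.13 (limma adjusted p = 0.115, not called). The part of these cell types in the members' values was not tested.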

How the data were processed

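The authors deposited non-normalized BeadChip probe intensities and, beside each intensity, a detection p-value for 8 arrays. Their notes name lumi, and the design text quantile normalization and limma. The sources name MouseRef-8 and MouseWG-6 designs, and no background correction is stated. Here all 8 arrays were quantile normalized and log2 transformed, arrays of a sample averaged, and the 6 samples (3 per group, grouped by the labels, no covariate) compared with limma 3.58.1 (R 4.3.3) over 11651 probes, with Benjamini-Hochberg adjustment and the cutoffs of the study's methods. The small number of arrays limits the precision. The fit was tested on simulated data.

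The members and lists were chosen with earlier results of these data known. Named were all members, the called genes of 6 pathway lists (at most 6 per list), a fixed set of pathway genes whatever their values (of which 1 is not reported here), and the 5 symbols most like Rsad2 and Bst2 in pattern, plus genes marked as chosen later. Marker lists covered smooth muscle, endothelial, macrophage, plasmacytoid dendritic and mesothelial cells. Older array symbols were matched. Promoter, hairpin and gene positions are RefSeq's (GRCm38.p6). Alternatives changed the background correction, normalization, detection filter, repeat arrays, empirical Bayes step, replicate block, thresholds and samples included.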

Additional observations from a re-analysis of the deposited data

How the results depend on the processing

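Rsad2 and Bst2 passed the cutoffs in all 19 alternatives, which describes their values and is no independent support, since the members were selected on this contrast. Log2 differences were read in the 16 that refit the data. The detection filters, the empirical Bayes step and the replicate block could not change them. Rsad2 ranged from -1.34 to -1.14, Bst2 from -0.85 (normexp background correction) to -0.63, Ifit2 from 0.21 to 0.44, Ifit3 from 0.14 to 0.26, Oasl2 from -0.17 to -0.03, Irf7 from -0.01 to 0.12 and Usp18 from -0.12 to 0.03. The last pair changed sign in 1 alternative each. At an adjusted p under 0.05 with no fold cutoff, 2 members (Ifit2 and Ifit3) were called higher, against 0 with the cutoffs used, and the other pathway genes had 18 lower and 7 higher, against 6 and 1, and all tested probes 1860 lower and 2083 higher, against 448 and 363. At a fold over 1.5, pathway genes had 1 lower and 0 higher, and all probes 174 and 86. Normexp left 2 pathway genes lower (Eif2ak2 and Oas2) and 0 higher, and duplicateCorrelation over all 8 arrays left 0 higher. With 1 sample left out, pathway genes called lower ran from 3 to 8 and higher from 1 to 2. The extremes of 3 lower and 2 higher came without control 2, where Irf2, H2-T23 and Oas1g lost their calls and Gbp2 gained one. H2-T23 also lost its call without moR-21 3, and H2-M3 without control 3 or without moR-21 2. The cause was not tested.

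Samples with the same replicate number did not deviate together throughout: the correlation of their deviations from the group means was 0.187, 0.0441 and 0.0597 for numbers 1 to 3, and control 3 correlated best with moR-21 2 (0.0693). With the replicate number as a block, 450 probes were called lower and 365 higher, with 2 members lower, 0 members higher, and 6 other pathway genes lower and 1 higher. Signal near background limits Ifit1, Ifna1 and Mx1.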
